A study of Homo sapiens with 6 samples.

Results

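Imprinted genes are a set of loci of which a cell uses the copy from one parent and keeps the other silent, and 10 of them were followed here through RNA sequencing libraries of HEK293A cells, a strongly adherent subclone of HEK293, which is a line made from human embryonic kidney. They were PEG3, PEG10, DLK1, MEG3, H19, IGF2, MEST, CDKN1C, NDN and PLAGL1, matched by symbol to 10 of the 60676 Ensembl gene IDs in the deposited count tables. For 3 libraries the cells had 20 nM VT01454, a code-named compound, for 2 h, and for the other 3 they had the DMSO vehicle. The series title concerns phosphatidylinositol transfer proteins, phosphoinositides and the Hippo pathway. Separate cultures within a group are not stated in the labels, so the spread and any p-value may reflect technical variation only. The genes were chosen with counts of these same libraries in view, because several are near 0 in some libraries of either group. The differences of the 10 genes between the groups are therefore given as a description, and where the fit across all genes calls one of them the call is counted but nothing is read from it.

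Imprinting is set in the germ line by DNA methylation of control regions and is kept through cell division by maintenance methylation and by zinc finger proteins that protect the mark. Imprinted genes lie in domains, in which paternally expressed and maternally expressed transcripts often alternate around one control region. Many of them act on fetal and placental growth. Loss or gain of one parental copy causes disorders such as Beckwith-Wiedemann and Silver-Russell syndromes (11p15.5), Temple syndrome (14q32), transient neonatal diabetes (6q24) and Prader-Willi syndrome (15q11-q13). RNA counts per gene do not tell the parental copies apart.

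Promoter sequence, from 250 bases before to 50 bases after the annotated start, was held for 5 of the 10 genes (H19, MEG3, MEST, NDN and PLAGL1) in a RefSeq table on GRCh38.p14. PEG3, PEG10, DLK1, IGF2 and CDKN1C had no entry. The dinucleotide CG, the site of DNA methylation, was searched by its letters, which read the same on both strands. It was present in 95.8% of 27305 promoters of this length, with a median of 14 per promoter. H19 held 6, MEST 13, MEG3 19, PLAGL1 31 and NDN 35. The windows of H19 and PLAGL1 are printed because, as described below, H19 was near 0 in some libraries while PLAGL1 was even across them, and each CG is in capitals. No link between CG count and level is read from this pair: NDN, with the most CG, was at or under 3 counts in 4 libraries. The PLAGL1 window lies at the outer start of the gene and not at the start of HYMAI inside it (144008262). Methylation of these CG was not measured. H19 lies at chr11:2001217-2001516 and PLAGL1 at chr6:144064550-144064849, both on the minus strand and both written 5′ to 3′.
H19: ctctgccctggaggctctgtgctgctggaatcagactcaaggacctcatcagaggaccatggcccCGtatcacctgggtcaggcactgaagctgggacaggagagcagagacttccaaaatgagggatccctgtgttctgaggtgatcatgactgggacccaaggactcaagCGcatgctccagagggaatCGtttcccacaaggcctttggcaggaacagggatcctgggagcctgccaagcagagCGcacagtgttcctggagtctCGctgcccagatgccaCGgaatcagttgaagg
PLAGL1: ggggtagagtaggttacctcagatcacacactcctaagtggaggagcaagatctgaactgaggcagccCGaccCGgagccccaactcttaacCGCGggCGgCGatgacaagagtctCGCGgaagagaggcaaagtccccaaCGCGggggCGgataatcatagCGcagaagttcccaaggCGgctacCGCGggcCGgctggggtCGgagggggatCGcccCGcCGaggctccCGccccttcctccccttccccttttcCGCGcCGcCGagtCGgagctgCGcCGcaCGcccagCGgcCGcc
At least as many CG dinucleotides as in the H19 window were found in 65.6% of the promoters, and at least as many as in the PLAGL1 window in 20.4%.

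Library totals ran from 24646466 to 28880374 counts with VT01454 and from 19126039 to 26879796 with vehicle. A count of 0 therefore allows up to 3 counts, or 0.105 to 0.156 CPM (each count per 1000000 of the TMM-adjusted library total), as counting error only. Among markers of the HEK293 line, 6 of 10 were at 1 CPM or more in every library (NEFL, VIM, KRT8, KRT18, CDH2 and GATA3) and EPCAM, PAX2 and LHX1 were under 1 CPM in every library. The remaining marker, NEFM, had 4, 93 and 93 counts in VT01454 libraries 1, 2 and 3, against 87, 126 and 10 in vehicle libraries 1, 2 and 3. The leukocyte genes PTPRC and CD3E were at 0 throughout. Summed levels of 6 fibroblast and endothelial markers ran from 22.9 to 31.2 CPM with VT01454 and from 23.9 to 35.7 CPM with vehicle.

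Libraries stood apart from each other in ways that did not follow the treatment alone. Among 15577 genes abundant enough to test, 10 were at 3 counts or fewer in exactly VT01454 libraries 2 and 3 and at 10 or more in the other 4 libraries. PEG3 and DLK1 were among these 10. Another 6 genes, H19 among them, were near 0 in exactly VT01454 library 1 and vehicle library 3, and 5 genes with no imprinted member in exactly vehicle libraries 1 and 2. The other 12 of the 15 possible library pairs held 0 or 1 such gene each, 5 in all. Single libraries stood apart too, with 13 genes near 0 in vehicle library 2 alone, the largest set. Another 4 were near 0 in vehicle library 1 alone, 3 in VT01454 library 3 alone and 2 in vehicle library 3 alone. A set of 3 libraries (VT01454 library 3 and vehicle libraries 1 and 2) held 2 genes. None of the 10 imprinted genes was in these further sets.

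**Figure D1:**
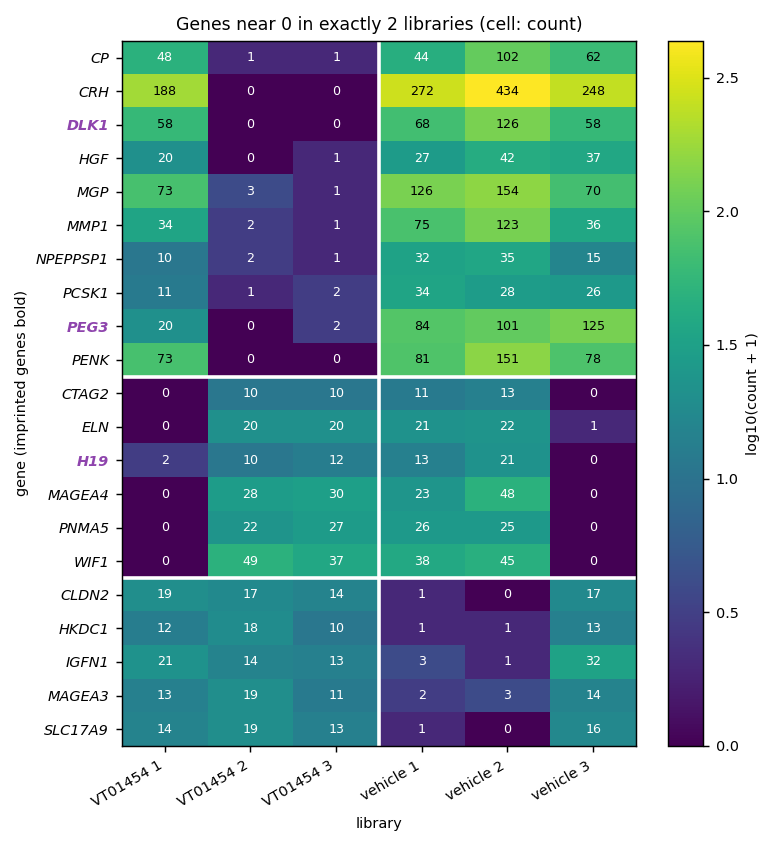
Counts of the genes at 3 counts or fewer in exactly 2 libraries and at 10 or more in the other 4, for the 3 library pairs with at least 5 such genes; columns are libraries (VT01454 left, vehicle right), colour is log10(count + 1), and imprinted genes are in bold. DLK1 and PEG3 fall in the upper block of 10 genes and H19 in the middle block of 6.

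Beside DLK1 and PEG3, the upper block held CP, CRH, HGF, MGP, MMP1, NPEPPSP1, PCSK1 and PENK, which were named after their counts were seen. CRH and PENK encode precursors of peptide hormones, HGF a growth factor, MGP a matrix protein and MMP1 a collagenase. CRH, with the most counts of them, had 188, 0 and 0 counts with VT01454 and 272, 434 and 248 with vehicle. PENK had 73, 0 and 0 counts with VT01454 and 81, 151 and 78 with vehicle. The block that holds H19 also held CTAG2, ELN, MAGEA4, PNMA5 and WIF1. WIF1, a secreted Wnt inhibitor, had 0, 49 and 37 counts with VT01454 and 38, 45 and 0 with vehicle. The fibroblast collagen gene COL1A1 was far above the floor throughout, at 15.3, 23.0 and 19.5 CPM with VT01454 and 26.8, 22.4 and 16.3 CPM with vehicle. Its lowest libraries were VT01454 library 1 and vehicle library 3, the pair near 0 in the block of H19. COL3A1 of the same marker list was also lowest there, at 3.61 and 3.47 CPM, but LUM and VWF were not. For LUM, VT01454 library 1 was the highest of its group at 2.49 CPM. VWF was lowest in VT01454 library 3 at 1.06 CPM, with vehicle library 3 at 2.10 CPM. DCN and PECAM1 were near 0 throughout. The part of these library differences in the values below was not tested, and in bulk RNA fewer cells that express a gene cannot be told apart from less RNA per cell.

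The 10 genes spanned a wide range of levels, and only PLAGL1 and PEG10 were above 1 CPM per kb in every library. Per kilobase of exonic length in GENCODE 29, PLAGL1 averaged 2.89 ± 0.128 CPM per kb with VT01454 and 2.65 ± 0.172 with vehicle (SD, n = 3 each). PEG10 averaged 1.72 ± 0.136 CPM per kb with VT01454 and 1.43 ± 0.257 with vehicle. Both lay below the median of tested genes, 3.93 CPM per kb over all 6 libraries, and 43.1% and 33.2% of 15474 tested genes with a known length lay at or below them. DLK1, PEG3, MEST and H19 followed at 0.438, 0.249, 0.216 and 0.153 CPM per kb over the 6 libraries. NDN, MEG3, CDKN1C and IGF2 came last at 0.0718, 0.0557, 0.0497 and 0.00643 CPM per kb. The ranges over the libraries of PLAGL1, PEG10 and DLK1 did not overlap in that order, while from DLK1 down each gene overlapped the next. MEG3 has many annotated transcripts, so its exonic length of 23224 bases lowers its level per length.

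**Figure D2:**
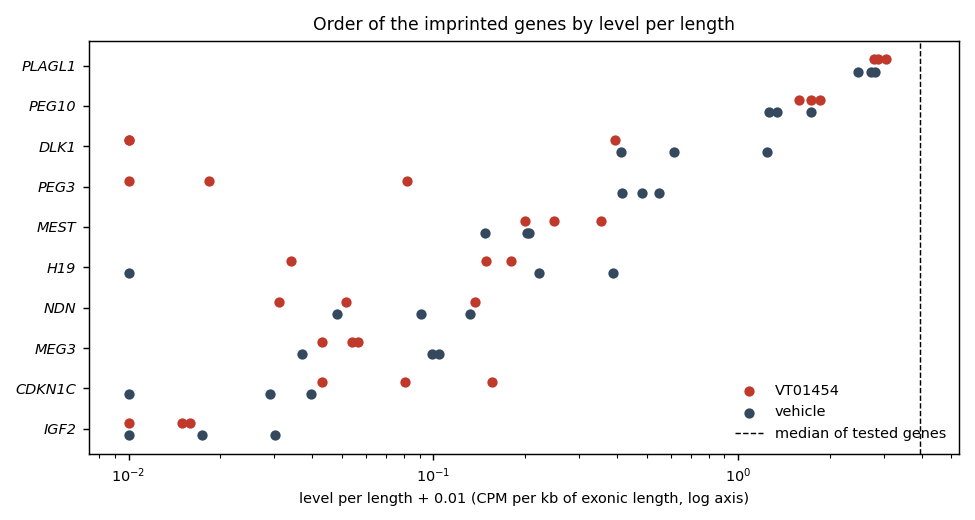
Level per kilobase of exonic length, with 0.01 added and on a log axis, for the 10 imprinted genes in each of the 3 VT01454 and 3 vehicle libraries; the dashed line is the median of tested genes. PLAGL1 and PEG10 lie below that median with the narrowest spread, and DLK1, PEG3, H19, CDKN1C and IGF2 each have a library at 0.

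PEG3 encodes a paternally expressed zinc finger protein and lies on chromosome 19 (ENSG00000198300, 56810077 to 56840728, minus strand). It had 20, 0 and 2 counts in VT01454 libraries 1, 2 and 3, against 84, 101 and 125 in vehicle libraries 1, 2 and 3. Every VT01454 library was below every vehicle library. Its mean was 0.261 ± 0.383 CPM with VT01454 and 4.61 ± 0.653 CPM with vehicle (SD, n = 3 each), a fitted log2 fold change of −4.03 ± 0.68 (SE). Leaving out VT01454 libraries 2 and 3 together gave −2.70, and leaving out VT01454 library 1 alone gave −6.65, a value that depends on the prior count because both remaining compound libraries are at or under the floor. In VT01454 library 1 and vehicle library 3, which share the near-0 set of H19, PEG3 stood at 20 and 125 counts. ZIM2, which shares 12.9% of the exonic bases of PEG3 on the same strand, was listed at 0 in all 6 libraries. Of its own exonic bases, 41.2% are shared with other genes on that strand, and reads that match several genes may not have been counted. The zeros of ZIM2 may therefore not reflect the RNA, and PEG3 may be undercounted. The other domain neighbours of PEG3, MIMT1 and USP29, were also at 0 in all 6 libraries.

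DLK1 encodes a membrane protein with EGF-like repeats that is related to Notch ligands, and it is expressed from the paternal copy (chromosome 14, 100725705 to 100738224, plus strand). It had 58, 0 and 0 counts in VT01454 libraries 1, 2 and 3, against 68, 126 and 58 in vehicle libraries 1, 2 and 3. In CPM every VT01454 library was below every vehicle library, although VT01454 library 1 at 2.03 CPM nearly met vehicle library 3 at 2.14 CPM. The counts of 0 allow up to 0.12 and 0.122 CPM in VT01454 libraries 2 and 3. The fitted log2 fold change was −2.44 ± 1.37, and it was −0.94 without VT01454 libraries 2 and 3. Without VT01454 library 1 both remaining compound libraries are at 0, so the fitted −9.52 depends on the prior count and is no bound. Against the mean level of 3 counts per library, 0.121 CPM, DLK1 in VT01454 libraries 2 and 3 was at least 32.8-fold lower than the vehicle mean of 3.97 CPM. Those libraries were picked by their counts of 0 and VT01454 library 1 was left out, so the fold describes them only. It holds against the vehicle mean alone, since the vehicle libraries ran from 2.14 to 6.57 CPM.

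MEG3, the maternally expressed long non-coding RNA of the same domain, did not follow DLK1 (100779410 to 100861031, plus strand). It had 22, 27 and 25 counts with VT01454, against 44, 42 and 17 with vehicle. Vehicle libraries 1 and 2 were above all others and vehicle library 3 was the lowest of the 6 at 0.627 CPM, so the groups overlapped (log2 fold change −0.73 ± 0.40). Without vehicle library 3 the value was −1.16. The neighbours RTL1, MEG8, MEG9 and DIO3 had at most 5 counts in any library.

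H19 is a maternally expressed non-coding RNA and the host of a microRNA, and IGF2, a fetal growth factor, is expressed from the paternal copy beside it at 11p15.5. H19 (1995176 to 2001470, minus strand) had 2, 10 and 12 counts with VT01454, against 13, 21 and 0 with vehicle. One library of each group was at or under the floor of 3 counts and the groups overlapped. The fitted log2 fold change of −0.75 ± 1.03 turned to 0.16 without vehicle library 2 and to 0.37 in limma-voom. IGF2 (2129112 to 2149603, minus strand) had 1, 0 and 1 counts with VT01454, against 3, 1 and 0 with vehicle, so all 6 libraries were at or under the floor. Of its exonic bases 75% are shared with other annotated genes, and reads that match several genes may not have been counted.

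CDKN1C, which encodes the cyclin-dependent kinase inhibitor p57 and is maternally expressed, lies in the neighbouring domain (2883213 to 2885773, minus strand). It had 5, 9 and 2 counts with VT01454, against 1, 0 and 2 with vehicle. The 2 VT01454 libraries over 3 counts were the only ones of the 6 above the floor, and the gene was too low to be tested. KCNQ1OT1, the paternal non-coding RNA that silences this domain, had 48, 44 and 49 counts with VT01454, against 41, 34 and 82 with vehicle (log2 fold change −0.32 ± 0.24, adjusted p = 0.565, edgeR quasi-likelihood test). PHLDA2 and KCNQ1DN were at 0 in every library.

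PLAGL1, a paternally expressed zinc finger transcription factor (chromosome 6, 143940300 to 144064599, minus strand), was the most even of the 10. It had 714, 660 and 595 counts with VT01454, against 456, 454 and 661 with vehicle. In CPM these were 25.0, 26.5 and 24.3 with VT01454 and 21.5, 23.7 and 24.4 with vehicle. The highest library was 1.23 times the lowest, the groups overlapped, and the log2 fold change was 0.12 ± 0.08. HYMAI, the non-coding RNA that starts inside PLAGL1, had at most 5 counts in any library.

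PEG10, a paternally expressed gene derived from a retrotransposon (chromosome 7, 94656325 to 94669695, plus strand), had 328, 263 and 303 counts with VT01454, against 177, 170 and 313 with vehicle. In CPM vehicle libraries 1 and 2 were the lowest of the 6 at 8.34 and 8.86, and vehicle library 3, at 11.5, lay within the VT01454 range of 10.6 to 12.4. The log2 fold change was 0.25 ± 0.13, and 0.41 without vehicle library 3. SGCE, which starts next to PEG10 on the opposite strand, averaged 29.7 ± 2.67 CPM with VT01454 and 28.9 ± 1.34 CPM with vehicle (log2 fold change 0.04 ± 0.08).

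MEST, a paternally expressed gene for a protein of the hydrolase fold (chromosome 7, 130486171 to 130506465, plus strand), had 26, 41 and 28 counts with VT01454, against 14, 18 and 25 with vehicle. The lowest VT01454 library, at 0.911 CPM, lay within the vehicle range of 0.66 to 0.938 CPM (log2 fold change 0.54 ± 0.30). MEST shares 27.4% of its exonic bases with genes on the other strand, and whether the counting used strand is not given in the sources used here. In the same domain KLF14, a Kruppel-like factor gene, had 6, 13 and 15 counts with VT01454, against 23, 18 and 21 with vehicle. Its groups did not overlap, and its log2 fold change of −1.06 ± 0.39 did not pass (adjusted p = 0.237, edgeR).

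NDN encodes necdin, a protein of the MAGE family whose loss is part of Prader-Willi syndrome (chromosome 15, 23685400 to 23687330, minus strand). It had 7, 2 and 1 counts with VT01454, against 5, 3 and 2 with vehicle, 10 in all in each group. One library per group was above the floor. Its neighbours MAGEL2 and MKRN3 had at most 2 counts in any library. SNRPN and SNURF were listed at 0 in every library, and 33.6% and 69.3% of their exonic bases are shared with each other or with other genes on the same strand, so these zeros may not reflect the RNA. UBE3A, the maternally expressed ubiquitin ligase gene of the domain in neurons, averaged 108 ± 2.69 CPM with VT01454 and 103 ± 8.27 CPM with vehicle (adjusted p = 0.682, edgeR).

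**Figure D3:**
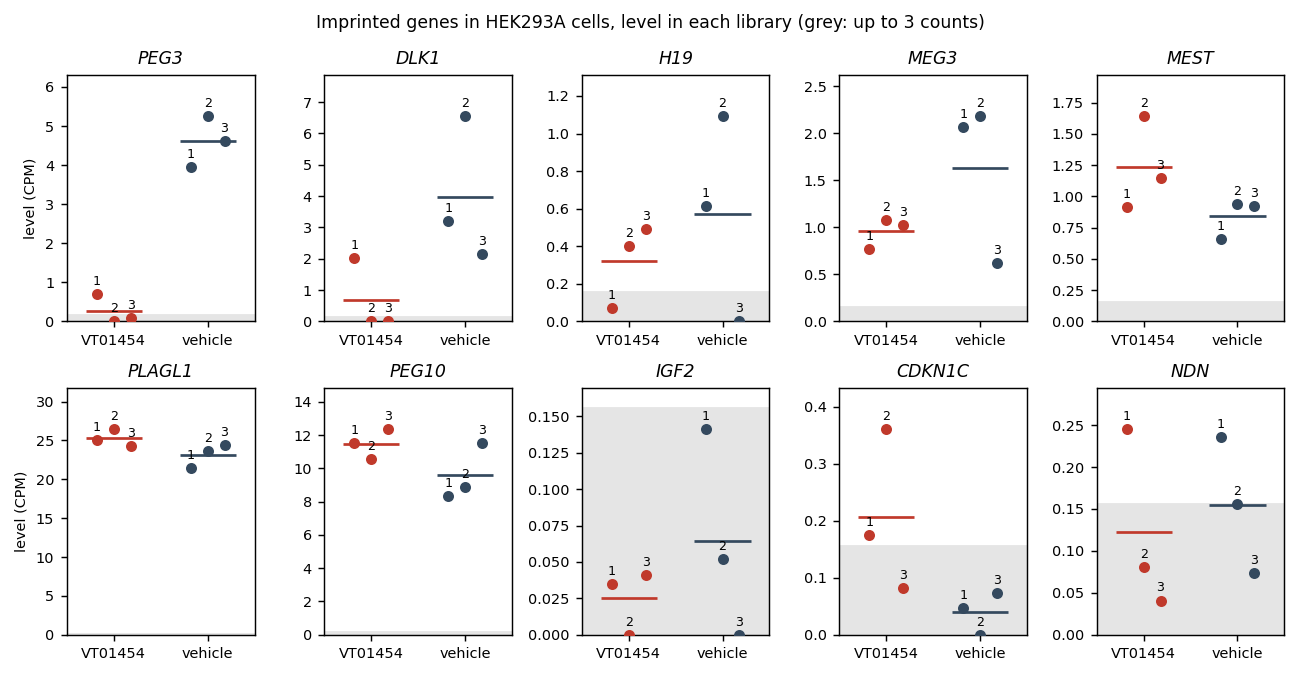
Level in CPM of each imprinted gene in VT01454 (left) and vehicle (right) libraries, numbered by replicate, with the group mean as a bar and, in grey, the level that 3 counts give in the shallowest library (0.156 CPM). PEG3 is lower in all 3 VT01454 libraries, DLK1 is at 0 in 2 of them, and H19 is near 0 in one library of each group.

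Of the 10 genes, 7 passed the filter on low counts and entered the fit across all genes, and IGF2, CDKN1C and NDN did not. PEG3 and DLK1 passed through their higher libraries. The whole-table test called 1 of the 7 lower, PEG3, where 0.616% of the 15577 tested genes were called lower, and none higher, where 1.27% were (edgeR quasi-likelihood, adjusted p below 0.05). At an unadjusted p below 0.05, 1 of the 7 was lower, where 6.55% of all tested genes were, and 0 were higher, where 7.82% were. DESeq2, which gave no adjusted p for MEG3, H19 and MEST, called 0 of the others, with 2.42% of its genes called higher and 0.974% lower, and limma-voom called PEG3 lower alone, with 1.11% of genes called higher and 0.443% lower. Because the genes were chosen on these libraries, nothing is read from that count. PEG3 was not called without vehicle library 1, vehicle library 2 or VT01454 library 3, DLK1 was called lower without VT01454 library 1, the one compound library in which it has counts, and without vehicle library 3 MEG3 was called lower and PEG10 higher. The groups did not overlap for 2 of the 7, both lower with VT01454, where 9.84% of tested genes did so in that direction. The median log2 fold change of the 7 was −0.73, beside −0.0073 for all tested genes, and 3 of 7 lay above 0, beside 48.4% of all tested genes. That median of the 7 changed sign with the libraries and the tool: it was 0.14 without vehicle library 2, −0.24 without VT01454 library 1, −1.16 without vehicle library 3 and 0.12 in limma-voom.

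Other imprinted genes give a wider view of the class in these cells. Of 49 further genes listed, 10 were at 0 in every library, 7 more never exceeded 3 counts, 9 exceeded 3 counts in some libraries only, and 23 did so in all 6. Those 23 were tested, and 1 fell with VT01454 and 0 rose, beside 0.616% and 1.27% of all tested genes (edgeR, adjusted p below 0.05). At an unadjusted p below 0.05 there were 3 lower and 1 higher, beside 6.55% and 7.82% of all tested genes. DESeq2 also called 1 lower and 0 higher, beside 0.974% and 2.42% of its genes. So did limma-voom, beside 0.443% and 1.11% of genes. None of the 10 tested neighbours from the domains of the 10 genes above passed, at log2 fold changes of −1.06 to 0.07 (lowest adjusted p = 0.237, edgeR), and 1 of them was below an unadjusted p of 0.05. The gene called was NAA60, an N-terminal acetyltransferase gene of which one transcript is imprinted, with 44.0 ± 0.433 CPM with VT01454 and 54.3 ± 1.21 CPM with vehicle (n = 3 each), a log2 fold change of −0.30 ± 0.06 (adjusted p = 0.0258, edgeR; lower in 3 of 3 libraries). That call was lost without vehicle library 1 (adjusted p = 0.128) or VT01454 library 1, 2 or 3 (0.157, 0.185 and 0.205). ZNF597, its neighbour, differed by −0.09 ± 0.10 (adjusted p = 0.726, edgeR). GNAS, which encodes the stimulatory G protein subunit, averaged 1042 ± 26.5 CPM with VT01454 and 1059 ± 82.2 CPM with vehicle. The median log2 fold change of the 23 was −0.03, and 10 of them (43.5%) lay above 0. The groups did not overlap for 6 of the 23 in the lower direction and for 1 in the higher, beside 9.84% and 11.3% of all tested genes.

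**Figure D4:**
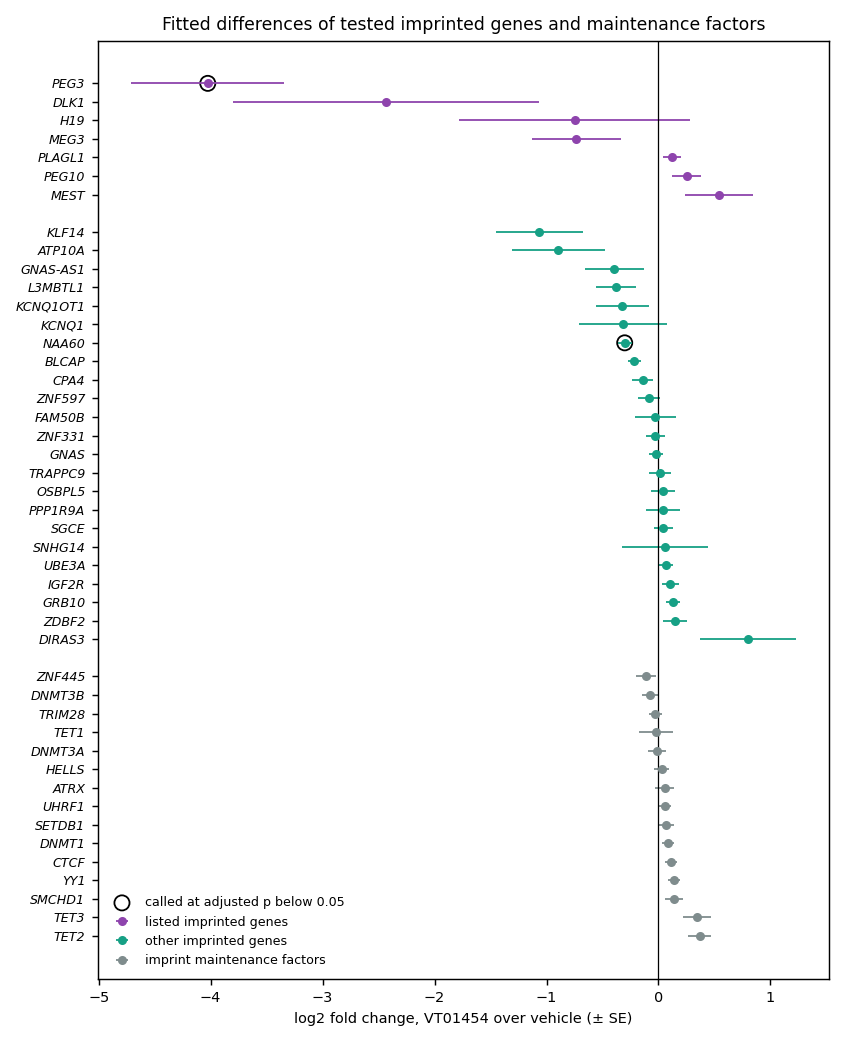
Fitted log2 fold change of VT01454 over vehicle (± SE) for the tested imprinted genes, the other listed imprinted genes and imprint maintenance factors; circles mark genes called at an adjusted p below 0.05. PEG3 stands at −4.03 and NAA60 at −0.30, and the maintenance factors lie between −0.11 and 0.37.

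Most listed factors that set, keep or remove imprints were expressed, and none was called in edgeR. Of 18 such genes 15 were tested, and ZFP57, DNMT3L and DPPA3, genes of the germ line and early embryo, were at 0 in every library. None of the 15 passed in edgeR, where 1.27% of all tested genes were called higher and 0.616% lower, or in limma-voom (1.11% and 0.443%). DESeq2 called 1 higher and 0 lower, beside 2.42% and 0.974% of its genes. At an unadjusted p below 0.05 in edgeR, 3 were higher and 0 lower, beside 7.82% and 6.55% of all tested genes. The groups did not overlap for 6 of the 15, all higher with VT01454, where 11.3% of all tested genes did so, and 66.7% of the 15 lay above 0, beside 48.4%. Levels of TRIM28, the co-repressor recruited to imprinted control regions, ran from 973 to 1000 CPM with VT01454 and from 920 to 1065 CPM with vehicle. The maintenance methyltransferase gene DNMT1 had a log2 fold change of 0.09 ± 0.06 and its partner UHRF1 0.06 ± 0.05 (adjusted p = 0.512 and 0.660, edgeR). The gene that DESeq2 called was TET2, a methylcytosine oxidase gene, with 38.1 ± 2.77 CPM with VT01454 and 29.4 ± 4.32 CPM with vehicle (log2 fold change 0.37 ± 0.10, adjusted p = 0.104 in edgeR and 0.0376 in DESeq2).

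The genes most like each uneven imprinted gene over the 6 libraries were taken by Pearson's r of log2(CPM + 0.5) among 13404 tested genes with a mean of at least 1 CPM. The 6 points share depth and library, and the highest r among so many genes is near 1 by selection, so r is given as a description. It reflects the shape over the libraries and not the size of the differences. For DLK1 these were PENK (r = 0.999), the collagen gene COL11A1 (0.994) and the copper protein gene CP (0.992). COL11A1 had 252, 40 and 24 counts with VT01454, against 316, 511 and 301 with vehicle, so it also was lowest in VT01454 libraries 2 and 3 but stayed above the floor. For PEG3 they were NTF3, NPM1P39 and PLPP6 (r = 0.996, 0.995 and 0.994), none of which came near 0. PLPP6, a lipid phosphatase gene, had 265, 196 and 200 counts with VT01454, against 259, 257 and 368 with vehicle. For H19 they were OBSL1, ANKRD9 and LINC01003 (r = 0.998, 0.994 and 0.991), and for MEG3 LRWD1, ABHD14B and BASP1 (r = 0.994, 0.993 and 0.992). None of these came near 0. OBSL1 had 1783, 1696 and 1680 counts with VT01454, against 1502, 1439 and 1669 with vehicle, a far smaller spread than that of H19.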

How the data were processed

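Each of 6 deposited tables, 1 per library, gives unnormalized read counts by Ensembl gene ID. HISAT2 2.2.1, HTSeq 0.9.1 and the build hg38 are named in the submitters' processing notes, and for annotation release, strand setting and ambiguous reads: not given in the sources used here. Symbols matched 60357 IDs. Coordinates (1-based) and exonic lengths are from GENCODE 29, a release on the same build that may differ from the one used for counting.

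Counts were fitted with edgeR 4.0.16 in R 4.3.3: filterByExpr, TMM factors, robust quasi-likelihood F-test, two-sided, adjusted by Benjamini-Hochberg over 15577 genes. Standard errors are the log2 fold change over the square root of F. The fit was tested on simulated counts of the same comparison over 15329 genes and recovered 74.6%, 72.7% and 92.2% of genes changed 1.5-fold, 2-fold and 3-fold, with 15 false calls among 172. The simulation drew the counts of a gene around the same mean level for all libraries of a group. Library splits such as those of DLK1 and H19 were not built in, so the rates do not cover such genes. Alternatives used DESeq2 1.42.0, limma-voom 3.58.1, other scalings and filters, and left-out libraries. All pairs of libraries differed beyond sampling noise, at a chi-square of 1.99 to 17.9 per degree of freedom. The imprinted genes, the other lists and the rule for naming genes (all listed imprinted genes, their domain neighbours, called genes of the lists, and the 3 most like genes) were chosen with earlier results of these data known.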

Additional observations from a re-analysis of the deposited data

How the results depend on the processing

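The counts of all genes called, 198 higher and 96 lower, became 508 and 205 with no count filter, 94 and 31 at an adjusted p below 0.01, and 73 to 1170 higher and 20 to 636 lower when single libraries were left out, most without vehicle library 3 and fewest without vehicle library 1. Of the 10 imprinted genes, 1 was called lower (PEG3) and 0 higher; DESeq2, the replicate number as a block and an adjusted p below 0.01 each gave 0 lower, and single left-out libraries gave 0 to 2 lower and 0 to 1 higher. Among the other imprinted genes the 1 lower call (NAA60) became 0 at an adjusted p below 0.01, and 0 to 2 lower and 0 to 1 higher without single libraries. Of the maintenance factors 0 were called, and 1 was higher in DESeq2, 2 without a count filter and 0 to 2 without single libraries. The replicate block left 232 genes higher and 107 lower. Same-numbered libraries deviated from their group means with correlations of −0.072, 0.001 and 0.003, and differently numbered ones with −0.037 to 0.043. These values show no pairing by number, and a shared batch or culture was not tested.

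After the data were seen, libraries were also left out in pairs. Without VT01454 libraries 2 and 3, which leaves 1 compound library assumed to vary like the vehicle libraries, 38 genes were higher and 6 lower, with 1 of the 10 imprinted genes lower (PEG3), the other imprinted genes at 0 and NAA60 at −0.28. Without VT01454 library 1 and vehicle library 3, 470 genes were higher and 142 lower, and 1 maintenance factor was higher. The 2 imprinted genes lower there (PEG3 and DLK1) give no support, since the pair was picked after their counts were seen and VT01454 library 1 is the one compound library with DLK1 counts. The log2 fold change of PEG3 ran from −6.65 to −2.70 over the 15 alternatives. That of DLK1 ran from −9.77 (no bound, since the compound libraries left are at 0) to −0.94. Every VT01454 library was below every vehicle library in CPM for both genes, which were chosen on these counts. A value below 0 in every alternative therefore gives no support. The log2 fold change of H19 changed sign, and the cause was not tested. Scaling moved the median of all tested genes by less than 0.1. IGF2, CDKN1C and NDN, at 9 counts or fewer in any library, were below the count filter. They entered only the edgeR fit without one and DESeq2, which gave them no adjusted p.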
